A study of Mus musculus with 6 samples.

Results

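Of the 25745 peaks of ubiquitylated histone H2B (H2Bub) listed for C2C12 myotubes, 3167 lay on chromosomes 10 and 15 and overlapped no peak of the myoblast list. They are called MT-only peaks below. Their definition used the peak lists of both groups and asked for not a single shared base. Chromosome 10 held 1339 of them and chromosome 15 held 1828. The 20 chromosomes 1 to 19 and X held 11688 MT-only peaks in all, 8521 of them on the other 18 chromosomes.

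C2C12 is a line of mouse myoblasts whose cells fuse into multinucleate myotubes in low-serum medium. Myoblasts (MB, 3 libraries) were taken while growing in 10% fetal bovine serum at about 40% confluency. Myotubes (MT, 3 libraries) had been kept for 96 h in 2% horse serum after reaching confluence. All 6 libraries came from chromatin cut with micrococcal nuclease, largely to single nucleosomes, and precipitated with clone 56, a Millipore antibody to H2Bub. Some sample labels spell the line C1C12. Each library is labelled with its own antibody lot number. The numbers run on from sample to sample, so they may not record real lots. If they do, lot and library cannot be told apart. The labels number the replicates but do not call them separate cultures, so p-values measure the spread between these libraries, which may be technical.

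H2Bub is a single ubiquitin attached to the C-terminal tail of histone H2B by the E3 ligase pair RNF20 and RNF40. It is placed along the bodies of transcribed genes as RNA polymerase II passes and is removed by deubiquitylases, so it follows ongoing elongation closely. It is known for easing passage of the polymerase through nucleosomes and for its link to methylation of histone H3. Muscle differentiation is accompanied by exit from the cell cycle and by a large change in the set of transcribed genes.

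The MB libraries held 9293327, 10500415 and 15903500 reads, and the MT libraries 8767810, 9251714 and 14480532. RPM is the number of reads scaled to 1000000 reads of the library on chromosomes 1 to 19 and X. Positions are on mouse build mm9, to within about 1 bp. Peak-free windows are consecutive 10 kb windows that touch no peak of either list and hold at least 15 reads over the 6 libraries. Their read density did not itself choose the peaks. It is not independent of that choice, because windows that touch a listed peak were left out. Chromosomes 10 and 15 were chosen with earlier results of these data known. Peak-free density and MT-only peaks per Mb also went together over the chromosomes, as given below. The p-values for the peak-free density of chromosomes 10 and 15 are therefore not independent of the choice of these chromosomes. Genes were not assigned to the peaks, because the annotation at hand is on another build.

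MT-only peaks were denser on the 2 chromosomes than on any other. Chromosome 15 had 18.2 MT-only peaks per covered Mb and chromosome 10 had 10.6. The next in order were chromosome 19 with 6.16, chromosome 8 with 5.95 and chromosome 11 with 5.68. The fewest were on chromosome 9, with 1.21, and chromosome 7, with 0.630. Together chromosomes 10 and 15 made up 9.04% of the covered genome and held 27.1% of all MT-only peaks, at 14.0 per Mb against 3.74 per Mb elsewhere. The other chromosomes held 72.9%. These counts come from the lists themselves and carry no replicate error. The 2 chromosomes were chosen with earlier results of these data known, so their excess is a description.

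The myotube peaks that did overlap a myoblast peak were also dense there, and the myoblast peaks less so. Chromosomes 10 and 15 held 20.6% of the shared myotube peaks but 10.6% of the myoblast peaks. Shared myotube peaks numbered 16.2 per Mb on chromosome 15 and 9.97 on chromosome 10, against 4.89 on the other chromosomes. Myoblast peaks numbered 99.7 per Mb on chromosome 15, 81.0 on chromosome 10 and 75.0 elsewhere. The MT-only share of myotube peaks was 52.9% on chromosome 15 and 51.5% on chromosome 10. It was 43.3% over the other chromosomes, and 52.7% on chromosome 19. The highest share was on chromosome X, at 63.3% (245 of 387 myotube peaks).

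Reads between the peaks were also dense on both chromosomes. Density in the peak-free windows of a chromosome was divided by that of the other autosomes, leaving out chromosomes 10 and 15. On chromosome 10 this ratio was 1.11, 1.06 and 1.09 in the MB libraries and 1.19, 1.21 and 1.17 in the MT libraries. The groups did not overlap there, and every MT library was higher. The means were 1.09 ± 0.0217 (SD, n = 3) in MB and 1.19 ± 0.0186 (SD, n = 3) in MT. The log2 difference was 0.13 with a standard error of 0.020, and limma gave an adjusted p of 0.00326 over the 20 chromosomes. Chromosome 10 was the only chromosome called higher, 5.0% of those tested. Chromosomes 9 and 18, 10.0% of those tested, were called lower. The call of chromosome 18 was lost without MB replicate 2, MT replicate 1 or MT replicate 3, at limma adjusted p-values of 0.0638, 0.0528 and 0.0602. Taking the median over windows in place of their mean gave a log2 difference of 0.09 for chromosome 10, with a limma adjusted p of 0.0833.

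On chromosome 15 the ratio was 1.25, 1.19 and 1.20 in MB and 1.28, 1.30 and 1.27 in MT. It was the highest of all 20 chromosomes in both groups, whereas chromosome 10 ranked 4 in MB and 2 in MT. The means of chromosome 15 were 1.22 ± 0.0332 (SD, n = 3) and 1.28 ± 0.0190 (SD, n = 3), again without overlap. The log2 difference of 0.08 (standard error 0.023) did not pass the threshold, with a limma adjusted p of 0.0520. It passed over windows without an MB peak, which include those with MT-only peaks that the lists chose, at a limma adjusted p of 0.0146. It also passed without MB replicate 1, at 0.00256, where chromosomes 1, 3, 13, 14 and X were called higher too. It was smaller over windows with no peak within 10 kb (log2 0.049, limma adjusted p 0.303), as a median over windows (0.037, 0.489) and over 50 kb windows (0.038, 0.537). An exact two-sided permutation test gave p = 0.1 for each of the 2 chromosomes, which is the smallest that 3 against 3 libraries can give. Input chromatin was not analysed here, so DNA copy number, mappability and H2Bub cannot be told apart in these densities.

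Across the 20 chromosomes, those with denser peak-free windows had more MT-only peaks per Mb. For the MT density Pearson's r was 0.870 and Spearman's rho 0.932. For the MB density they were 0.743 and 0.807. Without chromosomes 10 and 15, the remaining 18 gave an r of 0.913 for the MT density. The points share the same libraries and the same peak lists, and are given as a description. Chromosomes 11 and 19 had peak-free ratios of 1.15 and 1.11 in MT, near that of chromosome 10, but carried 5.68 and 6.16 MT-only peaks per Mb against its 10.6.

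**Figure D1:**
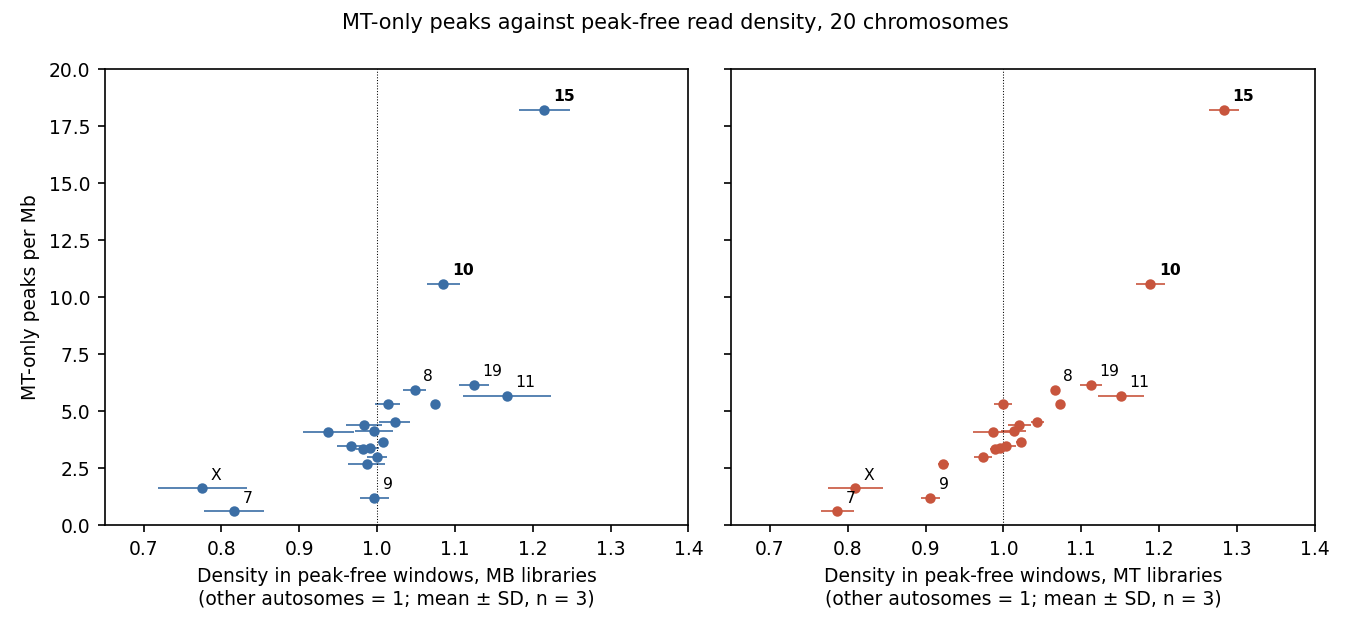
MT-only peaks per covered Mb (vertical axis) against the peak-free read density of each of 20 chromosomes relative to the other autosomes (horizontal axis), for the 3 MB libraries on the left and the 3 MT libraries on the right; points are means, bars are SD, and 8 chromosomes are labelled. Chromosome 15 stands highest at 18.2 per Mb in both panels, and chromosome 10 moves from 1.09 in MB to 1.19 in MT.

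Along both chromosomes the MT-only peaks came in broad hills rather than at one site. Chromosome 10 was divided into 127 bins of 1 Mb and chromosome 15 into 101. The median bin of chromosome 10 held 9 MT-only peaks, with quartiles of 4 and 16, and the fullest held 42. On chromosome 15 the median was 17, the quartiles were 9 and 26, and the fullest bin held 50. Only 2 bins on each chromosome held none. The fullest 32 bins held 52.3% of the MT-only peaks of chromosome 10, and the fullest 25 held 45.6% of those of chromosome 15. Over stretches of 10 Mb the density ran from 4.11 per Mb (100 to 110 Mb) to 16.4 per Mb (60 to 70 Mb) on chromosome 10. On chromosome 15 it ran from 5.70 per Mb (40 to 50 Mb) to 28.9 per Mb (from 100 Mb to the end).

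**Figure D2:**
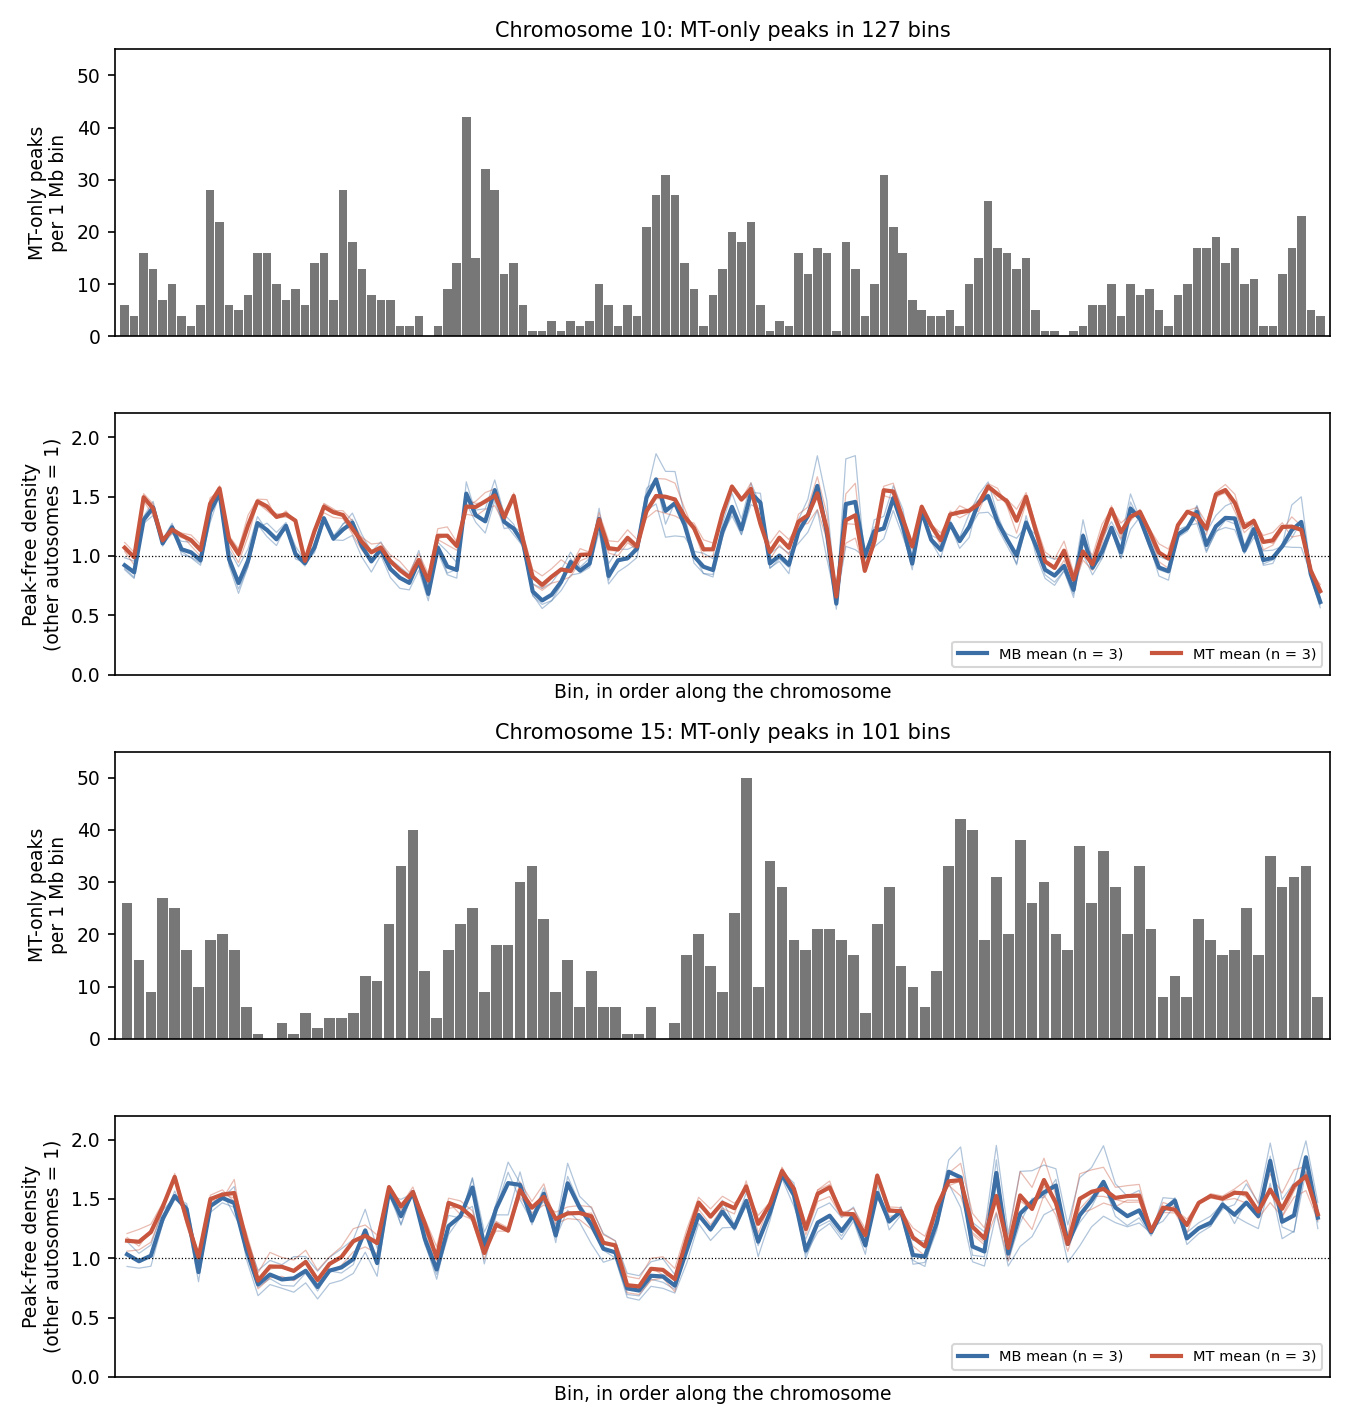
MT-only peaks in each 1 Mb bin (grey bars) and peak-free read density of the bin relative to the other autosomes (lines) along chromosome 10 (127 bins) and chromosome 15 (101 bins), with bins in order from left to right. Thick lines are means of 3 libraries and thin lines the single libraries, MB in blue and MT in red; hills of up to 42 and 50 peaks per bin stand where the lines are high.

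The hills stood where peak-free reads were dense. Over the 127 bins of chromosome 10, the number of MT-only peaks and the MT density had an r of 0.744 and a rho of 0.812. Over the 101 bins of chromosome 15 these were 0.756 and 0.778. The MB density gave an r of 0.745 on chromosome 10 and 0.711 on chromosome 15. Neighbouring bins and both measures share libraries, so these values are descriptions. Bins without any myoblast peak held fewer MT-only peaks. On chromosome 10 there were 27 such bins with a mean of 3.59 MT-only peaks, against 12.4 in the rest. On chromosome 15 there were 23, with a mean of 5.91 against 21.7.

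The fullest bins did not stand out for a change between the groups. The bin at 39 to 40 Mb of chromosome 10, with 42 MT-only peaks, had densities of 1.45, 1.62 and 1.51 in MB and 1.48, 1.35 and 1.42 in MT. These overlapped, and the limma adjusted p was 0.271. The bin at 41 to 42 Mb, with 32 peaks, had 1.29 ± 0.103 (SD, n = 3) in MB and 1.46 ± 0.0708 (SD, n = 3) in MT. The bin at 60 to 61 Mb, with 31 peaks, had 1.38 ± 0.294 (SD, n = 3) and 1.50 ± 0.145 (SD, n = 3). Neither passed the threshold, with limma adjusted p-values of 0.105 and 0.484.

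On chromosome 15 the fullest bin, at 55 to 56 Mb with 50 MT-only peaks, had densities of 1.55, 1.45 and 1.46 in MB and 1.60, 1.57 and 1.65 in MT. The groups did not overlap, but the difference did not pass the threshold (limma adjusted p = 0.128). The bins at 73 to 74 Mb, with 42 peaks, and 27 to 28 Mb, with 40, had MT means of 1.66 and 1.56 and MB means of 1.68 and 1.56. The empty bins were much less dense. Those at 35 to 36 and 102 to 103 Mb of chromosome 10 had MT means of 0.792 and 1.04, and those at 15 to 16 and 48 to 49 Mb of chromosome 15 had 0.931 and 0.902. None of these 4 held a myoblast peak either, and none passed the threshold.

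Many bins of chromosome 10 gained peak-free reads relative to the other autosomes. By limma, 29 of its 127 bins were higher in MT and 1 was lower. On chromosome 15, 6 of 101 bins were higher and none was lower, with 26 at an unadjusted limma p under 0.05 in either direction. Over all bins tested, 6.96% were called higher and 7.71% lower, so the share on chromosome 15 was near the background. The MT mean exceeded the MB mean in 107 bins of chromosome 10 and 82 of chromosome 15. These counts rested on single libraries: without MB replicate 2 or MT replicate 1, no bin of either chromosome passed. At an unadjusted limma p under 0.05 there were then 41 and 47 bins of chromosome 10, and 9 and 17 of chromosome 15, in either direction. Without MB replicate 1, 49 bins of chromosome 10 and 19 of chromosome 15 passed as higher, and without MT replicate 3, 39 and 15. The share over all bins is not given here for fits with a library left out, so their counts have no background beside them. Without MB replicate 3 or MT replicate 2, 1 bin of chromosome 10 and 0 of chromosome 15 passed as higher, with 14 and 18 bins of chromosome 15 at an unadjusted limma p under 0.05.

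MT-only peaks per Mb were also set side by side for bins of like density. Where the MT density was 1.2 to 1.4, there were 12.0 MT-only peaks per Mb on chromosome 10 and 15.9 on chromosome 15, against 7.76 on the other chromosomes. At 1.4 to 1.6 the values were 20.8, 24.4 and 14.0. At 1.0 to 1.2 they were 5.04, 10.9 and 3.97. When all windows without an MB peak gave the density, in a grouping added after the data were seen, the 1.4 to 1.6 class had 21.1, 23.9 and 17.3. Above 1.6 that grouping had 1 bin with 20 peaks on chromosome 10, 31.2 per Mb on chromosome 15 (12 bins) and 21.8 per Mb elsewhere (6 bins). These differences were not tested.

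**Figure D3:**
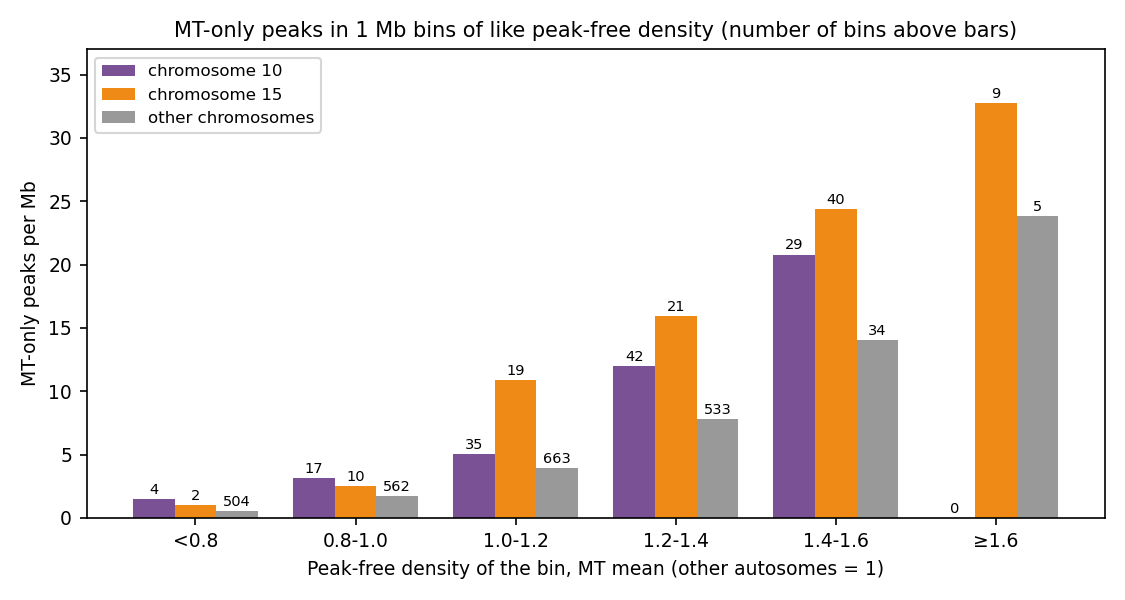
MT-only peaks per Mb (vertical axis) in 1 Mb bins grouped by their MT peak-free density relative to the other autosomes (horizontal axis), for chromosome 10, chromosome 15 and the other chromosomes; the number above each bar is the number of bins. Peaks rise with density in all 3 sets, reaching 24.4 per Mb on chromosome 15 and 14.0 on the other chromosomes in the 1.4 to 1.6 class.

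The peaks themselves were narrow and held few reads. Their median width was 264 bp, with a range of 29 to 956 bp, against a median of 265 bp for MT-only peaks of other chromosomes. Reads of the 3 MT libraries together had a median of 15 per peak and ran from 7 to 60, with 12 and 21 as the 10th and 90th percentiles. MT-only peaks elsewhere had a median of 14 and percentiles of 11 and 19. The MB libraries together had a median of 5 reads per peak and a range of 0 to 239. The median in single libraries was 1, 1 and 3 reads in MB and 4, 4 and 7 in MT. All 3 MT libraries had a read in 3069 of the 3167 peaks (96.9%), and 48 peaks had no read in any MB library.

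Because the peak lists chose these regions, their MT and MB reads are given as a description. Summed over the 3167 peaks, the MB libraries held 5167, 5885 and 10728 reads and the MT libraries 12708, 13952 and 22949. As a share of all reads this was 0.0597% ± 0.00672 (SD, n = 3) in MB and 0.152% ± 0.00679 (SD, n = 3) in MT. Density was 0.632, 0.637 and 0.767 RPM per kb in MB and 1.65, 1.71 and 1.80 in MT. The groups were far apart and did not overlap. MT-only peaks of other chromosomes had means of 0.713 ± 0.0411 in MB and 1.66 ± 0.105 in MT (SD, n = 3 each).

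The peak-free surroundings moved in the same direction. Windows within 250 kb of the peaks had 0.302, 0.273 and 0.347 RPM per kb in MB and 0.521, 0.536 and 0.537 in MT. All MT libraries were above all MB libraries, with means of 0.307 ± 0.0372 and 0.531 ± 0.00874 (SD, n = 3 each). The exact two-sided permutation p was 0.1, the smallest possible. RPM depends on the whole library. Under this scaling 70.9% of all 10 kb windows of the genome were called higher in MT and 13.1% lower, with a median log2 difference of 0.78.

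Relative to these surroundings, the peaks stood 2.09, 2.33 and 2.21 times above background in MB and 3.16, 3.20 and 3.36 times in MT. The means were 2.21 ± 0.119 and 3.24 ± 0.102 (SD, n = 3 each), without overlap. The regions without a listed myoblast peak were thus raised in the myoblast libraries too when summed. Pooled MB density was above the local background in 83.2% of them, near the 82.7% of MT-only peaks of other chromosomes. Chromosome 10 had means of 2.27 in MB and 3.37 in MT, and chromosome 15 had 2.18 and 3.15. MT-only peaks of the other chromosomes stood higher, at 2.46 ± 0.197 and 3.62 ± 0.164 (SD, n = 3 each). The ratio of the former to the latter in the MT libraries was 0.886, 0.918 and 0.882. Their local background ratio was 1.15, 1.19 and 1.15 in the same libraries, and the ratio of their RPM per kb was 1.02, 1.09 and 1.02. Density over background is divided by this local background, so the 2 ratios are not separate observations. These ratios were not tested.

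**Figure D4:**
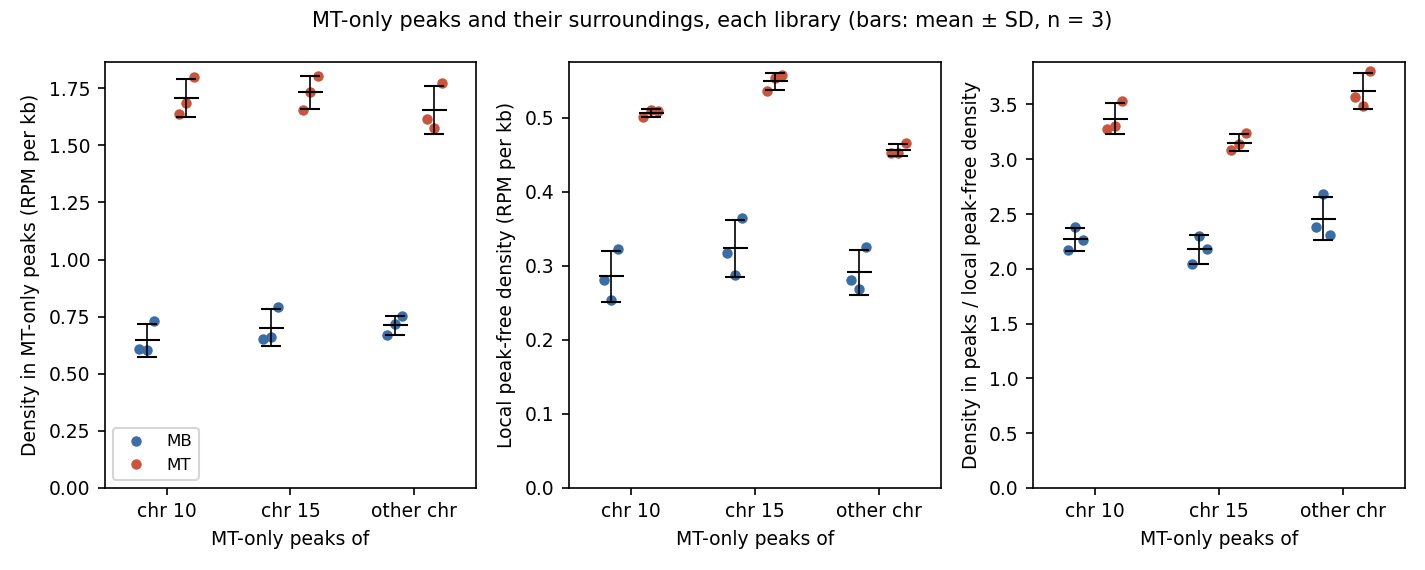
Read density in MT-only peaks (left, RPM per kb), in peak-free windows within 250 kb (middle, RPM per kb) and their ratio (right) for MT-only peaks of chromosome 10, chromosome 15 and the other chromosomes; each point is 1 library and bars are mean ± SD of 3. MT lies above MB in every panel, and the ratio in MT is lowest on chromosome 15, at 3.15.

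Distance to the nearest myoblast peak separated the MT-only peaks by their myoblast reads. The median distance was 53960 bp. Of the 3167 peaks, 359 (11.3%) lay under 1 kb from a myoblast peak, 541 (17.1%) at 1 to 10 kb, 1055 (33.3%) at 10 to 100 kb and 1212 (38.3%) farther away. Under 1 kb, density over background was 4.07, 5.00 and 3.99 in MB and 3.30, 2.83 and 3.45 in MT, so here the myoblast libraries were the higher ones. Beyond 100 kb it was 1.63, 1.61 and 1.70 in MB and 3.25, 3.45 and 3.43 in MT. The MT means of the 4 classes stayed between 3.14 and 3.38, while the MB means fell from 4.35 to 2.68, 1.70 and 1.65. MT-only peaks of other chromosomes had MB means of 5.40 under 1 kb and 1.65 beyond 100 kb.

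Reads, moved toward the nucleosome centre, were raised most near the peak centre. Within 60 bp of the centre, MT density was 3.46 ± 0.107 times background on chromosome 10 and 3.20 ± 0.0788 on chromosome 15 (SD, n = 3 each). The MB values were 2.42 ± 0.143 and 2.29 ± 0.135 (SD, n = 3 each). At 80 to 120 bp MT still stood at 2.56 and 2.37, and MB at 2.14 and 2.02. At 160 to 240 bp the order was turned, with 1.47 in MT and 1.72 in MB on chromosome 10, and 1.43 and 1.66 on chromosome 15. At 500 to 1000 bp MT had fallen to 1.21 and 1.20, whereas MB stood at 1.68 and 1.62. The groups did not overlap at any of these distances. Summed over these peaks, myoblast reads were thus raised in a wide region, and myotube reads mainly at the centre. The centres come from the myotube list, which favours a myotube maximum there. The sum includes peaks close to a myoblast peak, and profiles were not split by that distance.

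**Figure D5:**
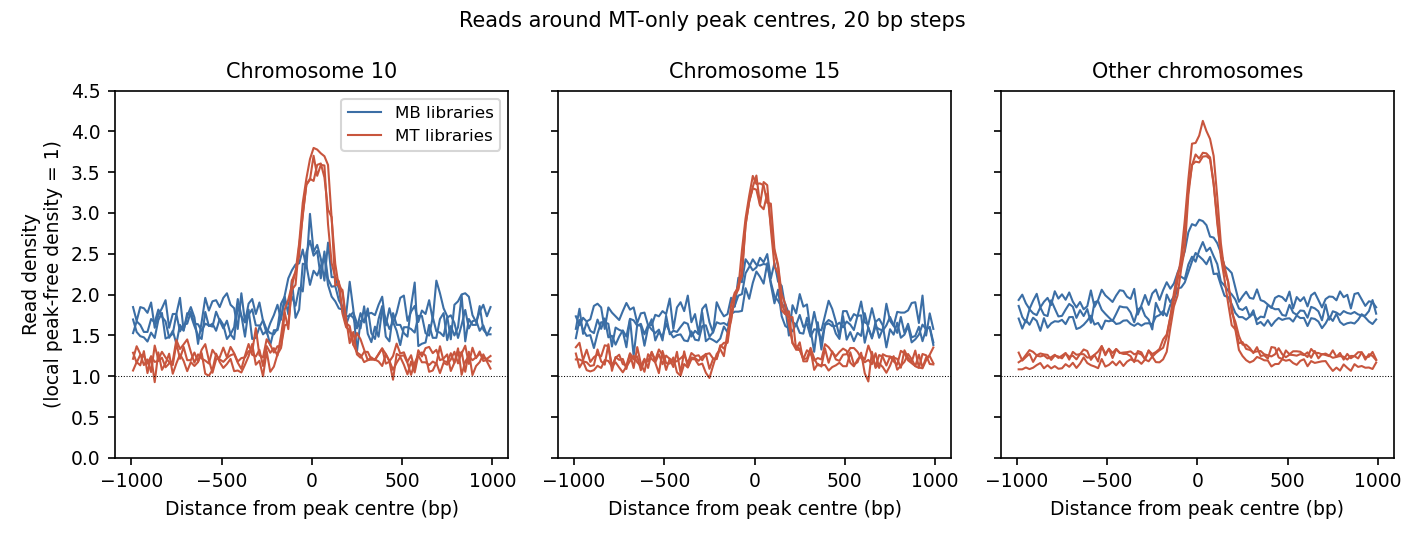
Read density relative to local peak-free windows (vertical axis) against distance from the centre of MT-only peaks in bp (horizontal axis, 20 bp steps, reads moved toward the nucleosome centre), for chromosome 10, chromosome 15 and the other chromosomes; each line is 1 library, MB in blue and MT in red. MT lines peak at the centre and lie below the MB lines from 160 bp outward, for example at 1.21 against 1.68 at 500 to 1000 bp on chromosome 10.

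Most MT-only peaks stood alone. With neighbours joined across gaps of up to 3 kb, 2636 (83.2% of the peaks) were single, 204 runs were pairs and 35 runs held 3 or more. Runs were commoner on chromosome 15, where 20.4% of the peaks had such a neighbour, against 11.9% on chromosome 10. The median gap between consecutive MT-only peaks was 25.3 kb on chromosome 15 and 42.3 kb on chromosome 10.

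The longest run held 6 peaks over 11.8 kb, on chromosome 15 from 63977282 to 63989084. Over the whole run, gaps included, density over background was 2.55, 2.80 and 2.08 in MB and 1.91, 1.43 and 1.62 in MT. The MB libraries were the higher ones without overlap. The next on chromosome 15, 5 peaks from 27817756 to 27825860, had 3.49 ± 0.674 in MB and 1.52 ± 0.624 in MT (SD, n = 3 each). On chromosome 10 the run of 5 peaks from 39221237 to 39225466 had 2.79 ± 0.669 and 2.13 ± 0.904, and the run of 4 from 69986206 to 69990625 had 2.28 ± 0.0854 and 2.05 ± 0.599 (SD, n = 3 each). In all 4 runs the MB mean of density over background was the higher, and on chromosome 10 the groups overlapped. In RPM the order differed on chromosome 10. The run from 39221237 had 4.56 ± 1.37 RPM in MB and 5.15 ± 2.35 in MT (SD, n = 3 each), with overlap. The run from 69986206 had 2.69, 2.29 and 2.89 RPM in MB and 5.14, 3.35 and 6.08 in MT, every MT library being the higher. On chromosome 15 the RPM means were 11.8 in MB and 9.93 in MT for the longest run and 10.9 and 8.11 for the next, with overlap in both.

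Single peaks were seldom deep enough for a test. In RPM, 1854 of the 3167 peaks (58.5%) had all 3 MT libraries above all 3 MB libraries. Over all regions of either list this was 3.23%, and for MT-only peaks of other chromosomes it was 55.1%. The selection used these same reads, so nothing is read from this count or from the limma calls of peaks that follow. Most regions of either list come from the myoblast list, so their direction was also shaped by selection. With a floor of 10 reads at the median library size in 3 libraries, 17 peaks could be tested with limma. A peak could meet this floor through the libraries of either group alone, so the floor also shaped the direction of these calls. Of these, 5 were higher and 6 lower in MT, where 0.0199% of all regions tested were called higher and 98.8% lower. Without the floor, 1790 were higher and 7 lower, against 3.16% and 78.5% of all regions. Background scaling brought 10 kb windows closer between the groups. It left a median log2 difference of 0.087 over all windows and 0.15 over peak-free windows. With this scaling and the floor, limma called 0 peaks higher and 8 lower, and no further peak had an unadjusted p under 0.05. Without the floor this scaling, added after the data were seen, gave 732 higher and 33 lower, against 1.37% and 92.8% of all regions. With the floor and total reads, the 5 higher peaks became 2 without MT replicate 3. They became 18 without MB replicate 1, 9 without MB replicate 3, 12 without MT replicate 1 and 10 without MT replicate 2, where 15 to 46 peaks met the floor.

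The 3 peaks of chromosome 10 with the highest mean MT RPM are given first. The region 69987195 to 69988025, 830 bp wide and 331455 bp from a myoblast peak, had 9, 7 and 9 reads in MB and 12, 10 and 31 in MT. This was 0.734 ± 0.210 RPM in MB and 1.53 ± 0.549 RPM in MT (SD, n = 3 each). All MT values were above all MB values, with MT replicate 3 the highest by far. The log2 difference was 1.11 (standard error 0.35) by total reads, and 0.40 under background scaling with a limma adjusted p of 0.313. Without MT replicate 3 the former was 0.83, with a limma adjusted p of 0.0552.

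The region 77651702 to 77652498 lay 103 bp from a myoblast peak and had 5, 11 and 17 reads in MB and 11, 15 and 21 in MT. Its MB and MT means were 0.886 ± 0.301 and 1.44 ± 0.184 RPM (SD, n = 3 each), without overlap. The region 12399378 to 12399992 had 5, 7 and 15 reads in MB and 11, 12 and 20 in MT, or 0.717 ± 0.207 and 1.31 ± 0.0644 RPM (SD, n = 3 each), also without overlap. Under background scaling their log2 differences were 0.00 and 0.11.

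On chromosome 15 the region 101032174 to 101033129, 955 bp wide, had 7, 9 and 14 reads in MB and 12, 17 and 31 in MT. Its means were 0.831 ± 0.0677 and 1.78 ± 0.389 RPM (SD, n = 3 each), and every MT value exceeded every MB value. The region 74163275 to 74164041 had 4, 10 and 11 reads in MB and 10, 16 and 19 in MT, again without overlap in RPM. The widest, 27866072 to 27867028 (956 bp), lay 267 bp from a myoblast peak and had 7, 11 and 15 reads in MB and 13, 6 and 29 in MT. Its groups overlapped, since MT replicate 2 had the lowest RPM of all 6 libraries.

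Some MT-only peaks held more reads in myoblasts. The clearest, named after its values were seen, was chromosome 15, 51661060 to 51661695, only 166 bp from a myoblast peak. It had 65, 91 and 83 reads in MB and 16, 5 and 17 in MT, or 6.97 ± 1.73 and 1.18 ± 0.643 RPM (SD, n = 3 each). The log2 difference was -2.64. Pooled MB reads stood 31.1 times over local background there. All 6 peaks called lower lay within 205 bp of a myoblast peak. Peaks that met the floor were often this close. Among those not called, 2 lay at 59 and 73 bp, and the peak at 77651702 of chromosome 10, called higher, at 103 bp. The other peaks called higher lay 7496 bp or farther away. Nothing is read from this nearness.

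At the edge of the definition, the nearest members on chromosome 10 lay 0 and 1 bp from a myoblast peak, and those on chromosome 15 lay 7 and 9 bp away. The member at 12234631 to 12235018 of chromosome 10 had 4, 8 and 6 reads in MB and 10, 8 and 12 in MT. The nearest peaks left out overlapped a myoblast peak by 5 and 6 bp on chromosome 10 and by 2 bp each on chromosome 15. The one at 5910945 to 5911207 of chromosome 10 had 4, 2 and 5 reads in MB and 5, 4 and 4 in MT. Pooled MT reads were 15 to 30 in these 4 members and 13 to 17 in the 4 peaks left out.

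Windows of 10 kb carry more reads than single peaks. The peak lists sorted these windows into classes. Calls in classes that hold a listed peak follow in part from that selection and are given as a description. Of 2248 windows that held an MT-only peak of chromosomes 10 and 15 and no myoblast peak, limma called 1978 (88.0%) higher and 5 lower by total reads, against 70.9% and 13.1% of all windows. Peak-free windows of the same chromosomes gave 14685 of 16244 (90.4%) as higher and 30 as lower. All windows include those with a myoblast peak. On the other chromosomes, 4928 of 6239 windows with an MT-only peak and no myoblast peak were higher and 68 lower. Peak-free windows there gave 144090 of 175456 as higher and 1797 as lower. The differences between these shares were not tested. Under background scaling, the windows with an MT-only peak had 121 higher (5.38%) and 114 lower (5.07%), and the peak-free windows 616 higher (3.79%) and 428 lower (2.63%). Genome-wide that scaling called 2.22% of windows higher and 18.8% lower. On the other chromosomes it called 285 higher and 702 lower of the 6239 windows with an MT-only peak. Of the 175456 peak-free windows there, 4160 were higher and 9594 lower. The 121 became 45 without MB replicate 2, 44 without MT replicate 1 and 68 without MT replicate 3. The 616 became 215 without MB replicate 2, 293 without MT replicate 1 and 386 without MT replicate 2. Without MB replicate 2 the lower counts were 61 and 265. Of the 592 windows that held both an MT-only and a myoblast peak, 13 were higher and 304 lower by total reads. Under background scaling limma called 0 higher and 540 lower, with 564 at an unadjusted p under 0.05 in either direction.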

How the data were processed

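The authors deposited read files with a chromosome, a position and a strand per line, and 2 peak lists with boundaries but no scores. The build is mm9, per the submitters' processing notes. For aligner, read length, filters, peak caller, threshold, control and pooling, the sources used here give nothing. No line was repeated within a file (0 in each), so strong regions can be compressed. Positions were counted here in peaks, 10 kb windows and 1 Mb bins with at least 20 peak-free windows. Local background was the peak-free density within 250 kb. The counts made here were compared with limma 3.58.1 (voom, two-sided, Benjamini-Hochberg adjustment, threshold 0.05) in R 4.3.3, in place of a count model, since the files list positions. Windows and regions were scaled by total reads, and bins by peak-free reads of autosomes other than 10 and 15. Background scaling used trimmed mean of M-values factors over windows. The floor also asked for 15 reads in all, and for 2 libraries where 1 was left out. The fits were tested on simulated data. Named items were the 3 peaks per chromosome with the highest mean MT RPM, the 2 widest, the 3 fullest and 2 emptiest bins, the 2 runs with most peaks, chromosomes by peaks per Mb, and the edges of the definition. The peaks, lists and alternatives were chosen with earlier results of these data known. Python 3.11.15 with pandas 2.3.3, SciPy 1.17.1, NumPy 2.4.6 and matplotlib 3.10.9 did the rest.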

Additional observations from a re-analysis of the deposited data

How the results depend on the processing

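The replicate numbers did not pair the samples: correlations of same-numbered deviations over 10 kb windows were 0.00, -0.17 and 0.15. Over 1 Mb bins they were 0.16, -0.44 and 0.87, and MB replicate 1 correlated more with MT replicate 2 (0.92). With the replicate block, chromosome 15 passed at a log2 difference of 0.080. In that fit 56 bins of chromosome 10 and 25 of chromosome 15 were higher. Shares over all bins are not given here for this or the other alternative fits, so these bin counts have no background beside them. For chromosome 10 the median over windows gave 0.093, no longer past the threshold. Windows without an MB peak, including those with MT-only peaks, gave 0.078 for chromosome 15, past it. Leaving out each library gave 0.12 to 0.15 for chromosome 10 and 0.066 to 0.10 for chromosome 15. It gave 0 to 49 higher bins of chromosome 10 and 0 to 19 of chromosome 15, 2 to 18 peaks higher and 4 to 7 lower, and 1844 to 2004 windows with MT-only peaks. By total reads all 127 and 101 bins were higher. Background scaling gave 121 windows with MT-only peaks (170 with the replicate block) and 616 peak-free windows (802 with the block). Leaving out each library under it gave 44 to 168 and 215 to 716. For peaks it gave 0 higher. Without a floor 1790 were higher and 7 lower (1168 to 1660 and 4 to 8 with a library left out), and with background scaling as well 732 higher and 33 lower. Only 3 were lower among the upper 50% by width, a set of 1346 peaks. Density over local background was 2.35 in MB and 3.37 in MT with windows within 1 Mb, 3.13 in MT with windows without an MB peak, and 2.88 in MT with shifted positions. Signs turned for uncalled values. The median over windows gave 0.0094 for chromosome 11 and 0.0083 for chromosome 19, and 50 kb windows 0.0071 for chromosome 11. Leaving out a library gave -0.054 to 0.015 for chromosome 11. The 956 bp peak of chromosome 15 gave -0.22 under background scaling, with and without the floor. By total reads the bins at 39 Mb of chromosome 10 and at 73 and 27 Mb of chromosome 15 gave 0.62, 0.72 and 0.74. Leaving out a library gave -0.012 to 0.38 at 60 Mb of chromosome 10. On chromosome 15 it gave -0.15 to 0.16 at 73 Mb, -0.010 to 0.0094 at 27 Mb, -0.028 to 0.26 at 15 Mb and -0.036 to 0.24 at 48 Mb. The combinations with background scaling or without the floor were chosen after seeing the data. The floor on reads left 17 of the 3167 peaks for testing.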
